A study of Homo sapiens with 18 samples.

Results

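The histone cluster genes are the protein-coding genes whose symbol begins with HIST1H, HIST2H, HIST3H or HIST4H. They were picked from the deposited table by that symbol pattern and by the table's own gene type, without use of any measured value, and 71 of the 57773 genes of the table met the rule. By class, 6 encode the linker histone H1, 17 encode H2A, 18 encode H2B, 15 encode H3 and 15 encode H4. A further 18 entries with such symbols are pseudogenes and were left out. HIST1 genes lie on chromosome 6, HIST2 and HIST3 genes on chromosome 1, and HIST4H4 on chromosome 12.

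Core histones H2A, H2B, H3 and H4 form the octamer that DNA wraps around in a nucleosome, and H1 binds the linker DNA between nucleosomes. Most cluster genes are replication dependent: cells read them mainly in S phase, when NPAT, switched on by cyclin E with CDK2, drives their transcription. Their main mRNAs carry no poly(A) tail and end in a short stem-loop, which SLBP binds and which is cut from the precursor with help from the U7 snRNP and FLASH (gene CASP8AP2). Poly(A) selection loses such mRNAs, while forms that run on to a poly(A) signal past the stem-loop are retained. Variant histones such as H2A.Z (H2AFZ) and H1.0 (H1F0) come from ordinary polyadenylated mRNAs made outside the clusters.

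The libraries came from A549 and H1299, a pair of human non-small cell lung cancer (NSCLC) lines, each with a control hairpin (shcon) or with hairpin shPPP2R2A-1 or shPPP2R2A-2. PPP2R2A encodes B55alpha, a regulatory subunit of the phosphatase PP2A. There were 6 groups of 3 libraries, 18 in all, from poly(A)-selected stranded mRNA. Both hairpins of a line were set against the same 3 shcon libraries, so the comparisons are not independent. Knockdown (KD) by a hairpin leaves some PPP2R2A RNA, all groups including shcon carry a hairpin vector, and no parental or rescued cells were among the samples. The labels do not say whether the repeats were separate cultures, so p-values measure only the spread between these libraries.

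Each library held 35743287 to 69298905 counts, the shallowest being H1299 shPPP2R2A-2 repeat 3. Levels are CPM, a gene's share of the library's counts after TMM scaling of the totals, and are not divided by gene length, so they rank reads and not molecules between genes. PPP2R2A was lower in every KD library than in any shcon library of its line. It ranged over 48.7 to 86.2 CPM in A549 shcon, 7.36 to 11.2 CPM under shPPP2R2A-1 and 10.7 to 15.4 CPM under shPPP2R2A-2, and in H1299 over 73.7 to 104.3, 6.51 to 9.82 and 14.5 to 18.1 CPM. Its log2 fold changes were -2.98 and -2.47 in A549 and -3.52 and -2.45 in H1299 (shPPP2R2A-1 then shPPP2R2A-2), with adjusted p of 0.00025, 3e-04, 0.00014 and 0.0017 by the quasi-likelihood test of edgeR, adjusted after Benjamini and Hochberg, the source of every adjusted p given here. The epithelial keratins KRT8 and KRT18 were read in both lines, the epithelial markers CDH1, EPCAM and KRT19 were at or near 0 in H1299, and VIM and FN1 were read in both. Of the markers of other cells, the 3 leukocyte genes PTPRC, CD3E and CD68 stayed under 1 CPM in every library and summed to at most 0.507 CPM. The 3 fibroblast genes COL1A1, COL1A2 and DCN summed to 5.78 to 8.61 CPM in A549 shcon, 10.2 to 33.2 CPM under shPPP2R2A-1 and 26.7 to 31.2 CPM under shPPP2R2A-2, most of it COL1A1, and to 1.03 to 1.76, 0.825 to 1.09 and 2.95 to 6.82 CPM in H1299. The 3 endothelial genes CDH5, VWF and KDR summed to 1.48 to 4.16, 0.332 to 0.636 and 0.701 to 1.10 CPM in A549 and 0.123 to 0.941, 0.216 to 1.28 and 0.815 to 2.15 CPM in H1299. COL1A1 thus lay higher in every A549 KD library than in shcon, as the summed members did, and its part in their changes was not tested. CDKN2A, which A549 is known to have lost, had 0 counts in 8 of the 9 A549 libraries and 57 counts in A549 shPPP2R2A-2 repeat 1, which is 2.93% of its mean CPM in H1299. Of 5 members read mainly in H1299 (HIST1H2AE, HIST1H2BG, HIST1H2BH, HIST1H3D and HIST1H3G), that library held 2.42% to 5.05% of the H1299 mean, against 0% to 1.99% in the other 8 A549 libraries. HIST1H2AL, also read mainly in H1299, went the other way, at 0.0216 CPM in that library and 0.0416 CPM pooled over the other 8. Where a member's call against shcon was lost without this library, that is given beside it.

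The stem-loop is shown first, since a transcript that ends at it carries no poly(A) tail. In GENCODE v29 transcript models (build GRCh38), all 71 symbols were found, and 32 have a model with a match to the 16-base stem-loop, of which the longest such model was used. The other 39 have none with a match. The 32 models hold 6 different stem-loops. The 6 lines give 1 member for each, with 5 flanking bases on either side in lower case and the stem-loop in capitals.
HIST1H2AC: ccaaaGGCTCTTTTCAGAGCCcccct
HIST1H2BD: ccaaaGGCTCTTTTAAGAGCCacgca
HIST1H4H: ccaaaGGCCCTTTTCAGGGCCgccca
HIST1H4I: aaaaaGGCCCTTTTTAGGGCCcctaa
HIST1H2AG: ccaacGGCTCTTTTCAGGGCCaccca
HIST1H3E: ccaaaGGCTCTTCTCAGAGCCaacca
The first form is that of 17 members of classes H2A, H2B and H3, the second that of 5, and the HIST1H4H and HIST1H4I forms are those of 5 and 3 H4 members. HIST1H2AG and HIST1H3E each stand alone with theirs.

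In the annotated models, the stretch past the loop differed between members that were read and members that were not. Of 23 members whose model goes on for over 100 bases past the stem-loop, 15 reached detection, and so did 2 of 9 whose model ends within 100 bases of it and 5 of 39 whose model does not hold it. The signal AATAAA stood in the last 40 bases of 18 of the 32 models with a stem-loop. HIST1H4H runs 1655 bases past its loop, HIST2H2BE 1729 and HIST1H2AG 1761. The models of HIST1H2BK, HIST1H1C and HIST1H2BJ held no match, the longest being 381, 642 and 950 bases. Many of the 39 models without a match are as short as that of HIST1H2BK. A model that stops before the loop cannot show it, so no match does not mean that the gene lacks one. CPM is not divided by length, and the part of model length in detection was not tested. Annotated models of a later build were used here as a description of the genes, not as the annotation the reads were counted on.

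Promoters are shown because the members share elements that set them apart by class. Of the 71 members, 66 had a promoter of 250 bases before to 50 after the start in RefSeq (GRCh38.p14). The last 150 bases before the start follow for 4 members of 4 classes whose values are given further on, 5' to 3' on the gene's strand, with capitals for the CCAAT box, the TATAAA box, the octamer ATTTGCAT, the H1 element AAACACA or the E2F motif TTTCCCGC on either strand.
HIST1H2BK, chr6:27146856-27147005, minus strand: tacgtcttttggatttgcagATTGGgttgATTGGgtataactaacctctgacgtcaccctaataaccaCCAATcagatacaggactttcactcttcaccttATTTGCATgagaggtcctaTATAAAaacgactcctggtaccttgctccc
HIST1H1C, chr6:26056471-26056620, minus strand: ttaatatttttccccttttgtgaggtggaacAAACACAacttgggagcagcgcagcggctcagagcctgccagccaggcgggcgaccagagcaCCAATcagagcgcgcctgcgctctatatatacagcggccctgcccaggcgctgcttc
HIST1H2AC, chr6:26124022-26124171, plus strand: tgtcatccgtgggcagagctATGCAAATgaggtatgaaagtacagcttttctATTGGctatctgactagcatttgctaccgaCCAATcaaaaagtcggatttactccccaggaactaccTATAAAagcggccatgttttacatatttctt
HIST1H4H, chr6:26285535-26285684, minus strand: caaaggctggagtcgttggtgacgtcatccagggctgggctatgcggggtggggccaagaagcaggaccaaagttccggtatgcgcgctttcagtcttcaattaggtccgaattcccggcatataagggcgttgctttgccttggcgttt
CCAAT, the box bound by NF-Y, stood in 56 of 66 member promoters (84.8%), against 34.6% of all 35116 promoters of the same length. TATAAA stood in 44 (66.7%, against 11.5%). ATTTGCAT, the octamer bound by OCT1 (POU2F1), stood in 25 (37.9%, against 1.77%), which were 11 of 16 H2A and 14 of 18 H2B promoters and 0 of the other classes. AAACACA, known from H1 promoters, stood in 6 of 6 H1 promoters and in 9 in all (13.6%, against 5.64%). TTTCCCGC, an E2F motif, stood in 1 (1.52%, against 1.63%). CCAAT was in 3 of 13 H4 promoters and in every promoter of the other 4 classes. None of the 5 motifs lies in the stretch shown for HIST1H4H, which says only that these letters are not in it. The octamer was in 11 of 22 detected and 14 of 44 other members. A match is a description of sequence, not of binding.

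Some H2A and H2B genes lie head to head and share part of their promoter windows. HIST1H2AC and HIST1H2BC share 255 bases of their promoter windows, HIST1H2AG and HIST1H2BJ 253, HIST1H2AE and HIST1H2BG 268, HIST2H2AC and HIST2H2BE 265, and HIST1H2AK and HIST1H2BN 293. Members of a pair did not always share a level: HIST2H2AC averaged 0.339 CPM over the 18 libraries and HIST2H2BE 11.1 CPM, and HIST1H2AK averaged 0.230 CPM and HIST1H2BN 4.47 CPM. In the GENCODE models HIST1H2BN overlaps HIST1H2AL on the same strand and HIST1H2AK on the other, so its reads may be shared with HIST1H2AL.

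Most histone cluster genes were close to unread. A member counted as detected where it reached 1 CPM in all 3 libraries of at least 1 group, and 22 of 71 did so: 1 of 6 H1, 4 of 17 H2A, 10 of 18 H2B, 4 of 15 H3 and 3 of 15 H4 genes. In A549, 14 were detected, in H1299 21, and in both lines 13. Only 9 were detected in all 6 groups: HIST1H2BK, HIST1H1C, HIST1H2AC, HIST1H2BD, HIST1H2BJ, HIST2H2BE, HIST1H4H, HIST1H2BC and HIST1H2AG. By group, 11, 10 and 14 members were detected in A549 (shcon, shPPP2R2A-1, shPPP2R2A-2) and 15, 19 and 20 in H1299. Just inside the limit were HIST1H3E at 1.04 CPM and HIST1H2BF at 1.12 CPM (lowest library of the best group), and just outside were HIST1H2AL at 0.934 CPM and HIST1H3D at 0.864 CPM. At a limit of 2 CPM, 13 were detected. Another 46 stayed under 1 CPM in every library, 13 had at most 10 counts over all 18 libraries, and HIST3H3, HIST1H2AA, HIST1H4F and HIST2H3PS2 had none. A count of 0 in a library allows up to 0.0438 to 0.0815 CPM (3 counts, counting error only). HIST2H2AA3 and HIST2H2AA4, HIST2H3A and HIST2H3C, and HIST2H4A and HIST2H4B are near-identical copies whose reads may have been split or dropped, so their low counts are uncertain.

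**Figure D1:**
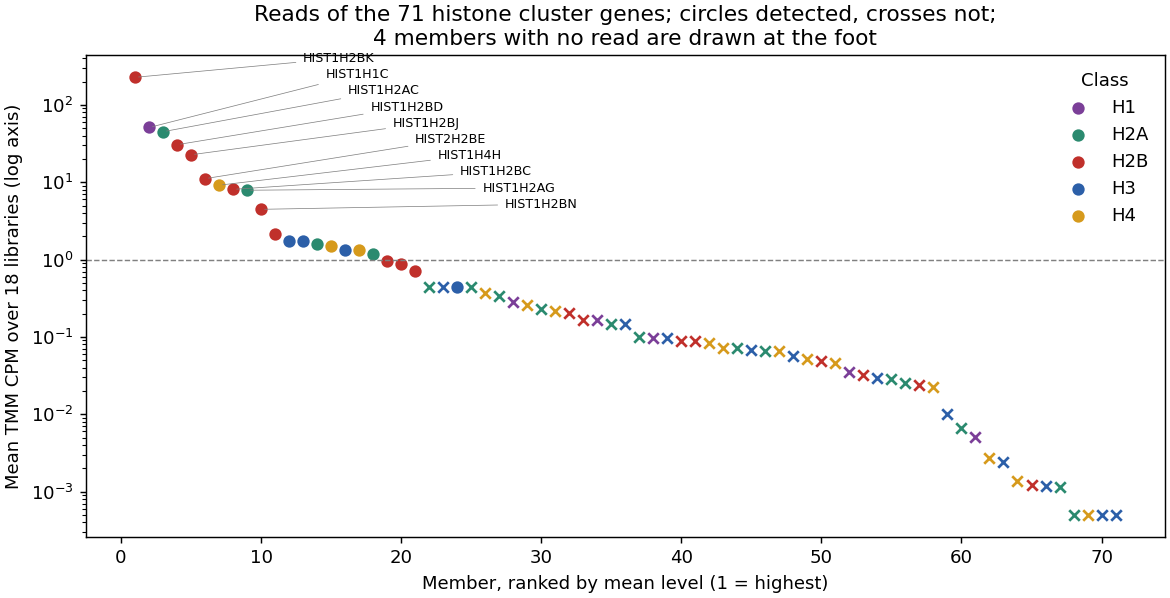
Mean level of the 71 members over 18 libraries (TMM CPM, log axis) in order of level, colored by class, with the 10 of the highest mean named. HIST1H2BK stood highest, and 46 members stayed under 1 CPM in every library.

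HIST1H2BK, an H2B gene, took the largest share of the members' reads. It made up 41.2% to 45.7% of their summed CPM in A549 and 49.0% to 66.6% in H1299. The summed level of the 71 members was 176, 230.0 and 172 CPM in the A549 shcon libraries, 278, 315 and 311 CPM under shPPP2R2A-1, and 401, 473 and 332 CPM under shPPP2R2A-2. All 6 KD libraries lay above all 3 shcon libraries. In H1299 it was 463, 458 and 381 CPM in shcon, 759, 510.3 and 609 CPM under shPPP2R2A-1, and 569, 612 and 848 CPM under shPPP2R2A-2, again with no overlap between KD and shcon. No p is given for a sum over members. Without HIST1H2BK the group means were 109, 170.0 and 231 CPM in A549 and 178, 271 and 308 CPM in H1299, in the same order of groups.

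By class, the KD libraries lay above shcon for H2B in both lines. The A549 sums of H1, H2A and H4 largely repeat 1 gene each. Over shcon, shPPP2R2A-1 and shPPP2R2A-2 there, HIST1H4H averaged 2.86, 7.28 and 13.8 CPM, and summed H4 5.66, 9.91 and 17.2 CPM. HIST1H2AC averaged 23.6, 46.3 and 38.9 CPM, and summed H2A 29.7, 51.9 and 46.9 CPM. HIST1H1C averaged 30.8, 38.7 and 88.7 CPM, and summed H1 31.5, 38.9 and 89.3 CPM. Summed H2B was 108 to 143 CPM in A549 shcon, 177 to 211 CPM under shPPP2R2A-1 and 213 to 280.4 CPM under shPPP2R2A-2. In H1299 it was 274 to 366, 387 to 573 and 432 to 642 CPM. Summed H4 was 4.34 to 6.66, 8.56 to 11.0 and 14.5 to 19.6 CPM in A549 and 5.97 to 10.7, 14.0 to 30.3 and 13.1 to 22.6 CPM in H1299, also without overlap between KD and shcon. Summed H2A was 28.7 to 31.2, 49.6 to 54.3 and 38.3 to 52.6 CPM in A549, again with KD above shcon, and 43.7 to 76.7, 64.0 to 78.3 and 71.6 to 97.4 CPM in H1299, where the groups overlapped. In A549, H1 and H3 lay above shcon under shPPP2R2A-2 and overlapped it or lay lower under shPPP2R2A-1. H1 was 21.6 to 47.7 CPM in shcon, 36.4 to 41.8 CPM under shPPP2R2A-1 and 58.6 to 113 CPM under shPPP2R2A-2, and H3 was 3.09 to 4.07, 2.43 to 3.48 and 5.99 to 7.25 CPM. In H1299, H3 was 5.00 to 7.32, 6.01 to 9.04 and 7.98 to 12.1 CPM, so the shPPP2R2A-2 range lay above shcon while that of shPPP2R2A-1 overlapped it, and H1 was 28.9 to 41.5, 39.3 to 73.6 and 40.9 to 84.0 CPM, with overlap for both hairpins.

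In A549, members of all 5 classes rose under at least 1 hairpin, most of them H2B genes. H2B was also the largest class tested there, with 10 of the 24 members. With shPPP2R2A-1, 6 of 24 members tested were higher and 1 was lower, where of 17229 genes 7.34% passed the test as higher and 6.34% as lower. With shPPP2R2A-2, 9 were higher and 0 lower, where 10.6% of genes were higher and 9.94% lower. Of lower members under shPPP2R2A-2, 0 had an unadjusted p under 0.05 and DESeq2 also called 0. The median log2 fold change of the 24 members was 0.19 under shPPP2R2A-1 (all genes -0.02) and 0.79 under shPPP2R2A-2 (all genes -0.01). These 24 are the members that passed a filter on low counts, not all 71. Of them 16 reached the filter's level of 0.209 CPM in all 3 groups, and a member that reached it in fewer groups could pass through the group where it was high. Over the 64 members with any count in A549, the medians were -0.03 and 0.45, with 29 and 41 of 64 above 0.

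HIST1H2AC, HIST1H2BC, HIST1H2BK, HIST1H2BN and HIST1H4H rose with both hairpins in A549. The same 5 were the members, of 16 with a mean of at least 0.5 CPM, for which all 6 KD libraries lay above all 3 shcon libraries, and 0 lay below in this way. Of the 14830 genes at that mean, 7.94% lay above and 7.11% below. Without A549 shcon repeat 3, 3 members in place of 6 were called higher under shPPP2R2A-1. With shPPP2R2A-2, 5 in place of 9 were called without that library or without shPPP2R2A-2 repeat 2, and 6 without shPPP2R2A-2 repeat 1, the library with CDKN2A reads.

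In H1299 few members passed the test. With shPPP2R2A-1, 0 of 34 members were called in either direction, where 0.808% of the 15972 genes tested were higher and 1.93% lower. Unadjusted p lay under 0.05 for 8 higher and 0 lower members, and DESeq2 called 5 higher and 0 lower. With shPPP2R2A-2, 3 were higher (HIST1H2AG, HIST1H2BJ and HIST1H2BN) and 0 lower, where 1.37% of genes were higher and 1.72% lower. There, 16 higher members and 1 lower had an unadjusted p under 0.05, and DESeq2 called 7 higher and 0 lower. The median log2 fold change was 0.40 under shPPP2R2A-1 (all genes -0.04) and 0.77 under shPPP2R2A-2 (all genes -0.01). Of the 34 members, 22 reached the filter's level of 0.196 CPM in all 3 groups. Over the 62 members with any count in H1299, the medians were 0.41 and 0.53, with 43 and 39 of 62 above 0. The count of 3 fell to 0 without H1299 shcon repeat 3 or without shPPP2R2A-2 repeat 1, and to 1 without shcon repeat 2 or shPPP2R2A-2 repeat 2. With shPPP2R2A-1, 2 members were called without shPPP2R2A-2 repeat 3 and 1 without shPPP2R2A-1 repeat 2.

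HIST1H2BC, HIST1H2BF, HIST1H2BG, HIST1H2BJ, HIST1H4H and HIST4H4 had all 6 H1299 KD libraries above all 3 shcon libraries. They were 6 of 23 members with a mean of at least 0.5 CPM, and 0 lay below in this way. Of the 13768 genes at that mean, 3.35% lay above and 1.67% below.

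**Figure D2:**
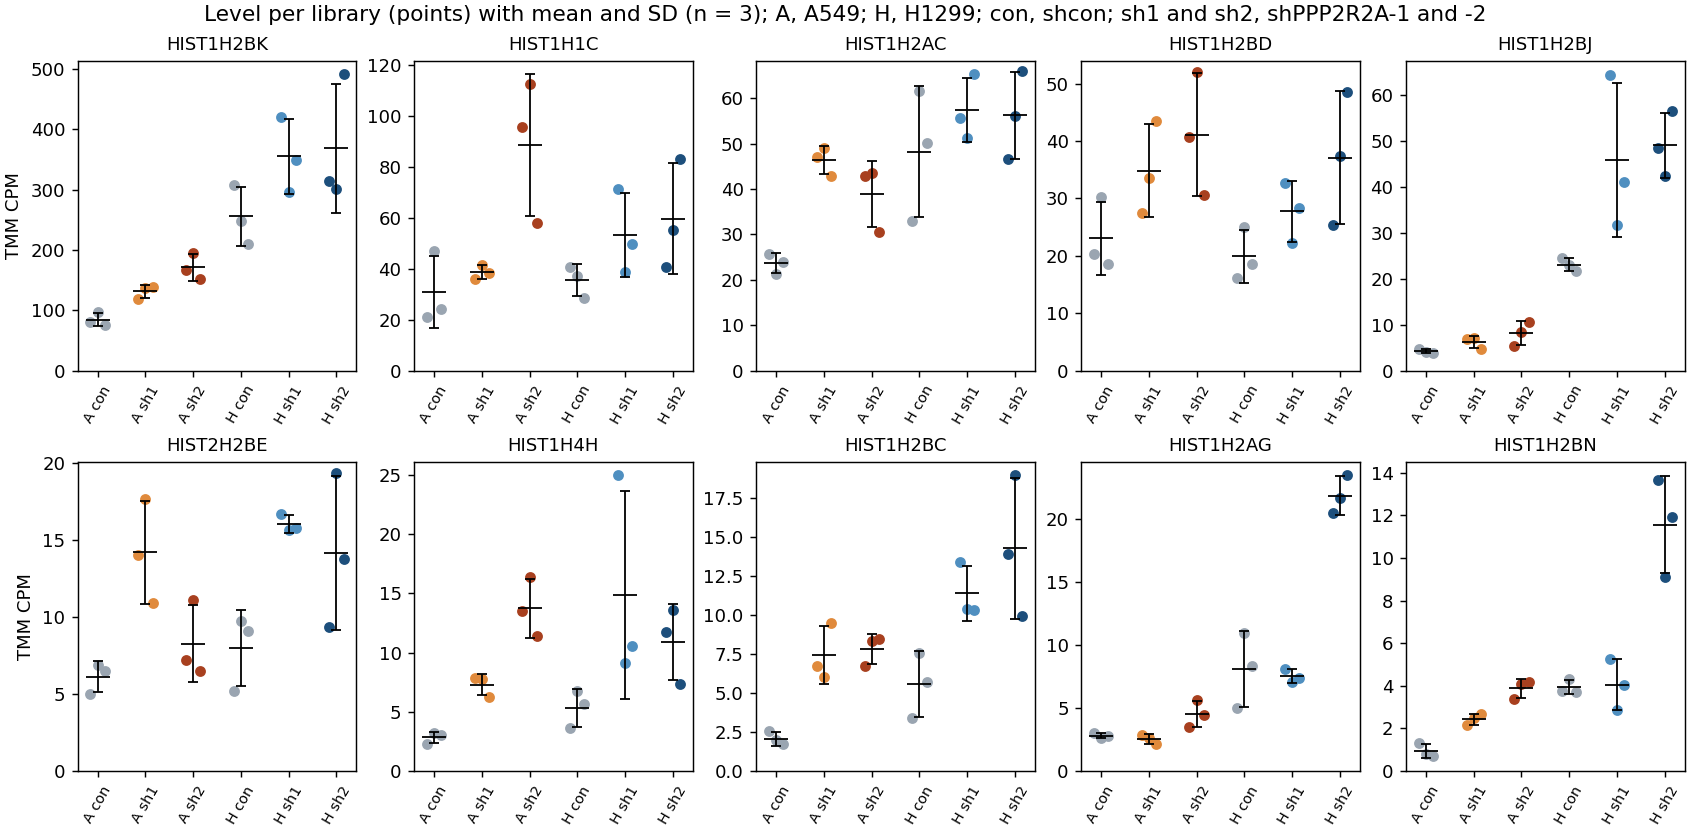
Level of the 10 members of the highest mean in each library (TMM CPM from 0), with mean and SD (n = 3) for the 6 groups. HIST1H4H lay at 2.32 to 3.22 CPM in A549 shcon and at 6.26 to 16.4 CPM in the A549 KD libraries.

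The H2B genes, 10 of the 24 members tested in A549, gave 4 of the 6 higher calls under shPPP2R2A-1 and 5 of the 9 under shPPP2R2A-2 there. HIST1H2BK stood at 80.5, 96.6 and 75.9 CPM in A549 shcon, 119, 136 and 139 CPM under shPPP2R2A-1, and 167, 195 and 152 CPM under shPPP2R2A-2. The 3 groups did not overlap and lay in that order. Its log2 fold change was 0.63 (SE 0.17, adjusted p = 0.028) and 1.03 (SE 0.17, adjusted p = 0.0023). The call under shPPP2R2A-1 was lost in 4 of the 9 fits without 1 library, and that under shPPP2R2A-2 in 0. In H1299, HIST1H2BK stood at 308, 249 and 210.3 CPM in shcon, 420.0, 296 and 349 CPM under shPPP2R2A-1, and 314, 300.2 and 492 CPM under shPPP2R2A-2. There the first shcon library lay within the range of the KD libraries, and the log2 fold changes were 0.42 (adjusted p = 0.32) and 0.46 (adjusted p = 0.30).

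HIST1H2BC had the largest log2 fold change of the members called higher under shPPP2R2A-1 in A549. It had 2.58, 1.98 and 1.71 CPM in shcon, 6.77, 6.04 and 9.52 CPM under shPPP2R2A-1, and 6.71, 8.34 and 8.44 CPM under shPPP2R2A-2. Every KD library held more than 2 times the level of every shcon library. Its log2 fold change was 1.83 (SE 0.27, adjusted p = 0.003) and 1.92 (SE 0.27, adjusted p = 0.0013), and neither call was lost in any of 9 fits without 1 library. In H1299 it had 3.38, 7.60 and 5.71 CPM in shcon, 13.4, 10.4 and 10.3 CPM under shPPP2R2A-1, and 13.9, 19.0 and 9.95 CPM under shPPP2R2A-2. All 6 KD libraries again lay above all 3 shcon libraries, while the hairpins overlapped each other as in A549, at log2 fold changes of 0.98 (SE 0.32, adjusted p = 0.13) and 1.30 (SE 0.32, adjusted p = 0.055).

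HIST1H2BN was called in both lines. It had 1.33, 0.825 and 0.696 CPM in A549 shcon, 2.15, 2.48 and 2.67 CPM under shPPP2R2A-1, and 3.38, 4.08 and 4.19 CPM under shPPP2R2A-2, at log2 fold changes of 1.35 (SE 0.32, adjusted p = 0.017) and 2.04 (SE 0.32, adjusted p = 0.0019), the first lost without shcon repeat 3. In H1299 the hairpins differed. It had 3.74, 4.33 and 3.73 CPM in shcon and 5.26, 2.85 and 4.04 CPM under shPPP2R2A-1, which overlap, and 13.7, 9.12 and 11.9 CPM under shPPP2R2A-2. The log2 fold change there was -0.02 under shPPP2R2A-1 (adjusted p = 0.98, with a sign that turned under other scalings) and 1.49 under shPPP2R2A-2 (SE 0.26, adjusted p = 0.017), a call lost in 3 of 9 fits without 1 library.

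HIST1H2BJ was also called in both lines, under shPPP2R2A-2. In A549 it had 4.64, 4.01 and 3.83 CPM in shcon, 6.79, 7.02 and 4.64 CPM under shPPP2R2A-1, and 5.37, 8.36 and 10.7 CPM under shPPP2R2A-2. In H1299 it had 24.5, 22.9 and 21.6 CPM in shcon, 64.3, 31.7 and 41.1 CPM under shPPP2R2A-1, and 48.4, 42.2 and 56.4 CPM under shPPP2R2A-2. All 6 H1299 KD libraries lay above all 3 shcon libraries, and the hairpins overlapped each other. The log2 fold change under shPPP2R2A-2 was 0.98 in A549 (SE 0.28, adjusted p = 0.032) and 1.03 in H1299 (SE 0.24, adjusted p = 0.045), and these calls were lost in 4 and in 6 of 9 fits without 1 library. With shPPP2R2A-1 it was 0.56 in A549 (adjusted p = 0.21) and 0.94 in H1299 (adjusted p = 0.065).

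HIST1H2BD and HIST2H2BE were called in A549 with 1 hairpin each. HIST1H2BD had 20.4, 30.3 and 18.5 CPM in shcon, 27.4, 33.5 and 43.5 CPM under shPPP2R2A-1, and 40.7, 52.1 and 30.6 CPM under shPPP2R2A-2. Its highest shcon library lay above 1 shPPP2R2A-1 library and just under the lowest shPPP2R2A-2 library, and its log2 fold change under shPPP2R2A-2 of 0.85 (SE 0.26, adjusted p = 0.042) lost its call in 5 of 9 fits without 1 library, shPPP2R2A-2 repeat 1 among them. HIST2H2BE had 4.98, 6.89 and 6.50 CPM in shcon, 14.1, 17.6 and 10.9 CPM under shPPP2R2A-1, and 7.23, 11.1 and 6.51 CPM under shPPP2R2A-2. Its log2 fold change was 1.21 under shPPP2R2A-1 (SE 0.27, adjusted p = 0.015, a call lost in 2 of 9 fits without 1 library) and 0.45 under shPPP2R2A-2 (adjusted p = 0.26). In H1299, HIST1H2BD averaged 19.9, 27.7 and 37.1 CPM and HIST2H2BE 8.0, 16 and 14.2 CPM in the 3 groups, and neither was called.

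Among H2A genes, HIST1H2AC, the head-to-head partner of HIST1H2BC, rose with both hairpins in A549. It had 25.8, 21.3 and 23.8 CPM in shcon, 47.0, 49.1 and 42.9 CPM under shPPP2R2A-1, and 42.8, 43.5 and 30.4 CPM under shPPP2R2A-2. Its log2 fold change was 0.97 (SE 0.18, adjusted p = 0.0079) and 0.73 (SE 0.18, adjusted p = 0.017). The second call was lost in 3 of 9 fits without 1 library, among them the fit without shPPP2R2A-2 repeat 1. Its H1299 levels were 32.9, 61.6 and 50.2 CPM in shcon, 55.7, 51.3 and 65.2 CPM under shPPP2R2A-1, and 46.7, 56.0 and 65.9 CPM under shPPP2R2A-2, and the groups overlapped.

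HIST1H2AG, the partner of HIST1H2BJ, was higher under shPPP2R2A-2 in H1299. It had 5.01, 11.0 and 8.30 CPM in H1299 shcon, 8.10, 7.03 and 7.40 CPM under shPPP2R2A-1, and 20.4, 21.6 and 23.5 CPM under shPPP2R2A-2. Only the shPPP2R2A-2 libraries stood apart. Its log2 fold change was -0.16 under shPPP2R2A-1 (adjusted p = 0.76) and 1.37 under shPPP2R2A-2 (SE 0.26, adjusted p = 0.022), and the second was not called in 3 of 9 fits without 1 library. In A549 it had 3.03, 2.65 and 2.78 CPM in shcon, 2.88, 2.63 and 2.13 CPM under shPPP2R2A-1, and 3.53, 5.60 and 4.47 CPM under shPPP2R2A-2, at log2 fold changes of -0.15 (adjusted p = 0.74) and 0.70 (adjusted p = 0.085).

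HIST1H1C, which encodes the linker histone H1.2, was the 1 H1 gene detected. In A549 it had 21.2, 47.1 and 24.2 CPM in shcon, 36.1, 41.5 and 38.3 CPM under shPPP2R2A-1, and 95.7, 113 and 58.1 CPM under shPPP2R2A-2. The shPPP2R2A-1 libraries fell inside the shcon range and the shPPP2R2A-2 libraries above it. The log2 fold change was 0.32 under shPPP2R2A-1 (SE 0.31, adjusted p = 0.51) and 1.54 under shPPP2R2A-2 (SE 0.31, adjusted p = 0.0067), the second not lost in any of 9 fits without 1 library. In H1299 it had 40.7, 37.3 and 28.6 CPM in shcon, 71.4, 38.7 and 49.7 CPM under shPPP2R2A-1, and 40.6, 55.2 and 83.3 CPM under shPPP2R2A-2, at log2 fold changes of 0.53 (adjusted p = 0.33) and 0.68 (adjusted p = 0.23).

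HIST1H1E, which encodes H1.4, was the 1 member called lower against shcon, and with a filter on the mean 0 were called lower. In A549 it passed the filter used here through shcon and shPPP2R2A-2. Under shPPP2R2A-1 it lay below that filter's level of 0.209 CPM. It had 0.279, 0.288 and 0.530 CPM in A549 shcon, 0.0221, 0.0424 and 0 CPM under shPPP2R2A-1, and 0.303, 0.449 and 0.416 CPM under shPPP2R2A-2. In counts, the 3 shcon libraries held 60 and the 3 shPPP2R2A-1 libraries 3, a ratio of 16.7 (95% exact interval 5.46 to 83.5, counting error only). The log2 fold change was -3.90 (SE 0.76, adjusted p = 0.0088), at levels below the limit of detection used here, and it was not lost in any of 9 fits without 1 library. With shPPP2R2A-2 it was 0.09. The H1299 libraries held 0.368, 0.0953 and 0.11 CPM in shcon, 0.999, 0.393 and 0.263 CPM under shPPP2R2A-1, and 0.175, 0.0692 and 0.245 CPM under shPPP2R2A-2, with a log2 fold change of 1.47 under shPPP2R2A-1 (adjusted p = 0.27).

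HIST1H4H, an H4 gene, had the largest log2 fold change among the members called under shPPP2R2A-2 in A549. It had 2.32, 3.22 and 3.05 CPM in shcon, 7.83, 7.74 and 6.26 CPM under shPPP2R2A-1, and 13.6, 16.4 and 11.4 CPM under shPPP2R2A-2. The 3 groups did not overlap. Its log2 fold change was 1.34 (SE 0.24, adjusted p = 0.0057) and 2.27 (SE 0.24, adjusted p = 3e-04), a fold of 2.53 and 4.84, and neither call was lost in any of 9 fits without 1 library. In H1299 it had 3.62, 6.77 and 5.63 CPM in shcon, 25.0, 9.09 and 10.6 CPM under shPPP2R2A-1, and 11.7, 13.6 and 7.31 CPM under shPPP2R2A-2. All 6 KD libraries lay above shcon, the hairpins overlapped each other, and 1 library of shPPP2R2A-1 stood far above the other 2. The log2 fold change there was 1.42 (SE 0.40, adjusted p = 0.087) and 0.97 (SE 0.40, adjusted p = 0.23).

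HIST1H3H was the 1 H3 gene called against shcon. It had 1.35, 1.30 and 1.33 CPM in A549 shcon, 0.686, 1.17 and 0.687 CPM under shPPP2R2A-1, and 3.03, 3.06 and 2.78 CPM under shPPP2R2A-2. The shPPP2R2A-1 libraries lay below shcon and the shPPP2R2A-2 libraries above. The log2 fold change was -0.65 (adjusted p = 0.18) and 1.17 (SE 0.31, adjusted p = 0.021), the latter lost in 4 of 9 fits without 1 library, shPPP2R2A-2 repeat 1 among them. Levels in H1299 were 1.27, 1.45 and 1.36 CPM in shcon, 1.65, 1.18 and 1.17 CPM under shPPP2R2A-1, and 2.01, 2.89 and 3.04 CPM under shPPP2R2A-2, with a log2 fold change of 0.89 under shPPP2R2A-2 (adjusted p = 0.11).

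**Figure D3:**
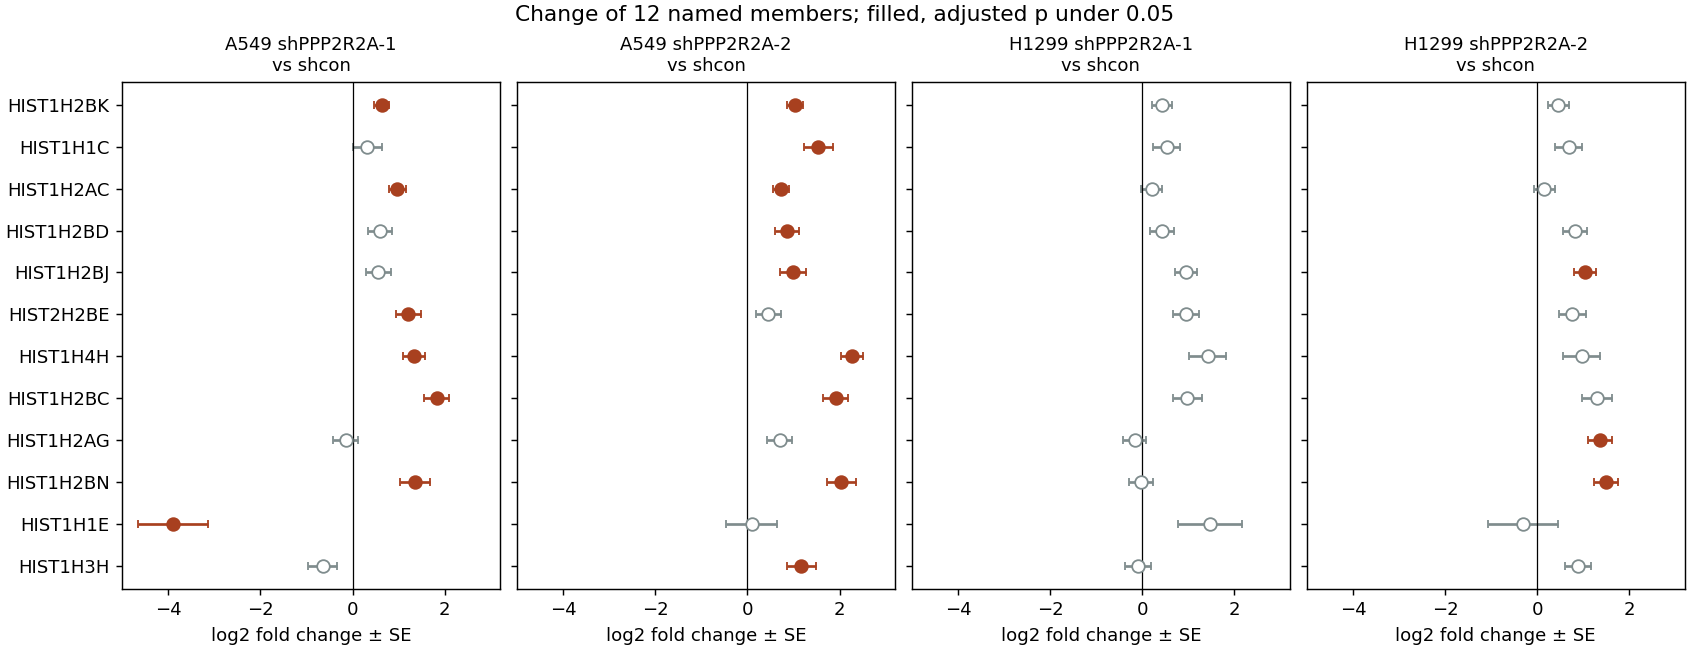
Log2 fold change against shcon with its SE for 12 named members in the 4 comparisons, filled where the adjusted p was under 0.05. HIST1H4H lay at 1.34 and 2.27 in A549, and HIST1H1E under shPPP2R2A-1 in A549 lay at -3.90.

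In all, 11 members were called higher in at least 1 of the 4 comparisons, 6 of them in 2 or more. By gene model, 7 of the 11 run over 100 bases past the stem-loop, 1 ends within 100 bases of it and 3 hold none. HIST1H2BJ and HIST1H2BN were called in both lines. The other detected members were not called against shcon in either line. HIST1H3B averaged 0.977, 1.20 and 2.06 CPM in the A549 groups and 0.529, 1.32 and 1.94 CPM in the H1299 groups. HIST4H4 averaged 0.992, 1.11 and 1.36 CPM in A549 and 0.875, 1.85 and 1.72 CPM in H1299. HIST1H4E averaged 0.940, 0.649 and 1.23 CPM in A549 and 1.32, 1.78 and 2.97 CPM in H1299, and HIST3H2A stayed between 0.734 and 3.56 CPM in all 18 libraries.

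Between the hairpins, some members differed in each line, in H1299 at no larger a share than over all genes. In A549, 5 of 24 members were higher under shPPP2R2A-2 than under shPPP2R2A-1 and 0 lower, where 9.54% of genes were higher and 8% lower. Of lower members, 1 had an unadjusted p under 0.05 and DESeq2 called 1. The 5 were HIST1H1C (log2 fold change 1.22, SE 0.31, adjusted p = 0.02), HIST1H1E (3.99, SE 0.77, adjusted p = 0.005), HIST1H3H (1.82, SE 0.32, adjusted p = 0.0031), HIST1H4H (0.94, SE 0.23, adjusted p = 0.017) and HIST1H2AG (0.85, SE 0.27, adjusted p = 0.048). Without shPPP2R2A-2 repeat 2 the count was 2, without shPPP2R2A-1 repeat 1 or 2 it was 3, and without shPPP2R2A-2 repeat 1 it was 4. The HIST1H1C call was lost in 4 of 9 fits without 1 library, shPPP2R2A-2 repeat 1 among them, and that of HIST1H4H in 1. HIST1H1E passed the filter through the groups where it was high. In H1299, 3 of 34 were higher and 1 lower, where 9.48% of genes were higher and 6.77% lower, so neither share of members exceeded that of all genes. HIST1H2AG (1.53, SE 0.26, adjusted p = 0.0041), HIST1H2BN (1.51, SE 0.26, adjusted p = 0.0046) and HIST1H3H (0.98, SE 0.28, adjusted p = 0.035) were higher under shPPP2R2A-2, and HIST1H4C was lower (-2.62, SE 0.63, adjusted p = 0.019). HIST1H4C lay at 0.413 to 0.613 CPM under shPPP2R2A-1 and 0.0349 to 0.109 CPM under shPPP2R2A-2, below the limit of detection. Its call was lost without shPPP2R2A-1 repeat 3, shPPP2R2A-2 repeat 1 or shPPP2R2A-2 repeat 2. Only under shPPP2R2A-1, where it was high, did all its libraries reach the filter's level of 0.196 CPM. With a filter on the mean, 0 members were lower between the H1299 hairpins. HIST1H2AG and HIST1H3H were higher under shPPP2R2A-2 in both lines, but the A549 call of HIST1H2AG and the H1299 call of HIST1H3H were each lost in 7 of 9 fits without 1 library. With the replicate number as a block, HIST1H3H in H1299 was at 0.97 and was not called (adjusted p = 0.051), which left 2 members higher. PPP2R2A itself was higher under shPPP2R2A-2 than under shPPP2R2A-1 in H1299 (log2 fold change 1.08, adjusted p = 0.0073).

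Whether the KD changes differed between the lines was tested in 1 fit of all 18 libraries, on 39 members. For shPPP2R2A-1, 0 members had a change that was higher in A549 than in H1299 and 1 had a lower change, HIST1H1E (difference -5.42, SE 1.10, adjusted p = 0.025), where 0.807% and 0.287% of 18827 genes did. Unadjusted p lay under 0.05 for 2 and 4 members, and DESeq2 called 1 and 1. The HIST1H1E call was lost in 5 of 18 fits without 1 library. For shPPP2R2A-2, 0 members differed in either direction, where 0.297% and 0.345% of genes did. Unadjusted p lay under 0.05 for 1 and 0 members, and DESeq2 called 0 and 0. So a call in A549 and none in H1299 is not shown to be a difference between the lines for the other members.

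In shcon, members were called between the lines no more often than genes in general. More of their calls were lower than higher in A549. In A549, 2 of 39 members were higher and 17 lower than in H1299, where 30.6% of genes were higher and 25.4% lower. The median log2 difference of the 39 (A549 minus H1299) was -1.03 against 0.07 for all genes. These 39 passed the filter on low counts, which a member could do through the line where it was high. Over the 67 members with any count, the median was 0, with 33 of 67 above 0. HIST1H2BK was lower in A549 (-1.60, SE 0.21, adjusted p = 3.1e-06), as were HIST1H2BJ (-2.47, SE 0.28, adjusted p = 5e-07), HIST1H2BN (-2.05, SE 0.29, adjusted p = 1e-05), HIST1H2AG (-1.52, SE 0.26, adjusted p = 6.9e-05), HIST1H2BC (-1.42, SE 0.31, adjusted p = 0.00071) and HIST1H2AC (-1.03, SE 0.21, adjusted p = 0.00047). HIST1H1C did not pass (-0.20, SE 0.32, adjusted p = 0.61). The 2 higher in A549 were HIST1H1D, an H1 gene (3.70, SE 1.12, adjusted p = 0.0089), and HIST1H3E. HIST1H1D had 3, 9 and 19 counts in A549 shcon and 1, 0 and 1 in H1299 shcon, below the limit of detection used here. With a filter on the mean, 0 members were higher in A549, and without H1299 shcon repeat 3, 4 were.

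Some members were read in 1 line and hardly in the other. They were named after their values were seen. HIST1H3E had 385 counts over the 9 A549 libraries and 0 in all 9 of H1299, at least 144-fold higher in A549 against a floor of 3 counts over the group. In the other direction, HIST1H2AE had 4 counts in A549 and 1099 in H1299 (245-fold after scaling to depth), its head-to-head partner HIST1H2BG 19 and 1991 (93.6-fold), HIST1H3G 13 and 1612 (111-fold), HIST1H2BH 16 and 834 (46.5-fold), and HIST1H2AL 17 and 392 (20.6-fold). HIST1H3D had 1 count in A549 and 423 in H1299, a ratio of 378 (95% exact interval 67.4 to 15000). Of the A549 counts, shPPP2R2A-2 repeat 1, the library with CDKN2A reads, held 3 of the 4 of HIST1H2AE, 10 of the 19 of HIST1H2BG and the 1 of HIST1H3D. Without that library, a setting chosen after seeing the data, HIST1H2AE had 1 count in A549, a ratio of 876 (95% exact interval 157 to 34600), HIST1H2BG had 9 (176-fold), and HIST1H3D had 0, at least 112-fold higher in H1299 against the same floor. The ratio was then 143 for HIST1H3G, 51.1 for HIST1H2BH and 19.5 for HIST1H2AL, and HIST1H3E was at least 141-fold higher in A549. The HIST1H3E level in A549 was 0.472, 0.633 and 0.928 CPM in shcon, 0.620, 0.700 and 0.859 CPM under shPPP2R2A-1, and 1.04, 1.35 and 1.47 CPM under shPPP2R2A-2.

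**Figure D4:**
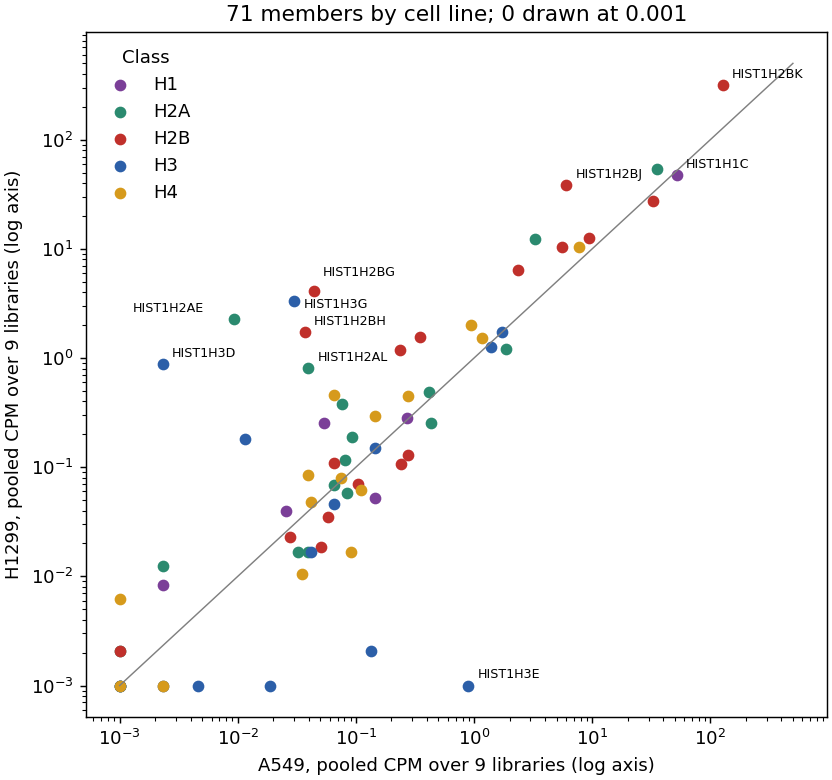
Pooled CPM of the 71 members over the 9 A549 libraries (x) and the 9 H1299 libraries (y), both on log axes, with 0 drawn at 0.001 and the line marking equal levels. HIST1H3E lies far to the right of the line with 0 counts in H1299, and HIST1H2AE, HIST1H2BG, HIST1H3G and HIST1H3D lie far above it.

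Genes listed for histone mRNA 3' end processing were called lower in A549 mainly under shPPP2R2A-2. This list and the later ones were chosen with earlier results of these data known. As a base for this and the later lists, 6.34% and 9.94% of all genes were lower in A549 (shPPP2R2A-1 then shPPP2R2A-2). In H1299, 1.93% and 1.72% were lower. Higher were 7.34% and 10.6% of genes in A549 and 0.808% and 1.37% in H1299. In this list and the 3 that follow, wherever 0 genes were called higher, at most 1 had an unadjusted p under 0.05 and DESeq2 called at most 1. The list of 24 genes holds some that are not particular to this process, such as SNRPD1, which encodes a core protein of snRNPs. Of the 24, 0 were higher with either hairpin in A549. There 1 and 10 were lower under shPPP2R2A-1 and shPPP2R2A-2, with median log2 fold changes of -0.19 and -0.45. The 1 of 24 under shPPP2R2A-1 was no larger a share than over all genes. SLBP averaged 79.4, 66.1 and 48.4 CPM in the A549 groups, at log2 fold changes of -0.27 (adjusted p = 0.30) and -0.70 (SE 0.17, adjusted p = 0.013, lost in 2 of 9 fits without 1 library). In H1299 it averaged 154.8, 119.7 and 121.9 CPM, with -0.42 (adjusted p = 0.12) and -0.41 (adjusted p = 0.13). CASP8AP2 fell with both hairpins in A549 (-0.85, SE 0.24, adjusted p = 0.039 and -1.46, SE 0.25, adjusted p = 0.0028), the first call lost in 6 of 9 fits without 1 library. ERI1, an exonuclease that binds the stem-loop, was at -1.46 under shPPP2R2A-2 (SE 0.22, adjusted p = 0.0016), and ZNF473, a U7 snRNP-associated zinc finger protein, at -1.0 (SE 0.18, adjusted p = 0.0039). In H1299, 1 gene (SNRPD3) was lower under shPPP2R2A-1 and 2 (SNRPD1 and SNRPE), which encode core proteins of snRNPs, under shPPP2R2A-2. These calls were lost in 7, 3 and 4 of 9 fits without 1 library, and that of SNRPD3 also with the replicate number as a block (-0.77, adjusted p = 0.07).

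Of 16 genes of histone gene transcription, 0 were higher and 3 and 9 lower in A549, 1 higher and 1 lower under shPPP2R2A-1 in H1299, and 0 higher and 1 lower under shPPP2R2A-2 there. NPAT was at -0.84 (adjusted p = 0.088) and -1.31 (SE 0.31, adjusted p = 0.013, lost in 2 of 9 such fits) in A549 and at -0.18 and -0.21 in H1299. CCNE2, a cyclin E gene, was at -2.16 (SE 0.36, adjusted p = 0.0048) and -1.67 (SE 0.36, adjusted p = 0.0085) in A549, and CCNE1, the other, at -1.55 under shPPP2R2A-1 in H1299 (SE 0.19, adjusted p = 0.0022). CDK2 and POU2F1 were at -1.36 (SE 0.24, adjusted p = 0.0033) and -0.90 (SE 0.17, adjusted p = 0.0053) under shPPP2R2A-2 in A549.

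Histone chaperones, which carry histones to and from DNA, gave 0 higher and 9 lower of 23 under shPPP2R2A-1 and 1 higher and 13 lower under shPPP2R2A-2 in A549, and 0 higher with 1 and 2 lower in H1299. CHAF1A and CHAF1B, subunits of the CAF-1 assembly factor, fell with both hairpins in A549 (CHAF1B: -0.93, SE 0.20, adjusted p = 0.013 and -1.46, SE 0.20, adjusted p = 0.0011). ASF1B was at -1.26 (SE 0.23, adjusted p = 0.0074) and -1.13 (SE 0.23, adjusted p = 0.0073). Of 20 histones outside the clusters, 11 were tested in A549 and 12 in H1299. In A549, 0 were higher and 3 and 4 lower, among them CENPA, the centromeric H3 variant (-1.16, SE 0.29, adjusted p = 0.023 and -1.68, SE 0.29, adjusted p = 0.0032), and H2AFV (-0.58 and -0.71, adjusted p = 0.034 and 0.011). Under shPPP2R2A-1 these calls were lost in 2 (CENPA) and 6 (H2AFV) of 9 fits without 1 library. H1FX was lower under shPPP2R2A-1 (-1.24, SE 0.25, adjusted p = 0.01), and H2AFZ and H1F0 under shPPP2R2A-2 (-0.74, adjusted p = 0.02 and -0.80, adjusted p = 0.0064), the H2AFZ call being lost in 4 of 9 such fits. In H1299, 1 was higher under shPPP2R2A-1 (H1F0, 1.26, SE 0.25, adjusted p = 0.026, lost in 6 of 9 such fits), and otherwise 0 were called. Unadjusted p there lay under 0.05 for 4 lower under shPPP2R2A-1 and 1 lower under shPPP2R2A-2, where DESeq2 called 1 and 0.

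S phase genes fell in A549, 25 of 47 under shPPP2R2A-1 and all 47 under shPPP2R2A-2. This list too was chosen with earlier results of these data known, so these counts are not independent of them. Over all genes, 6.34% and 9.94% were lower in A549 and 1.93% and 1.72% in H1299. Of the 47, 0 were higher and 25 and 47 lower in A549, with median log2 fold changes of -0.79 and -1.49, and 0 were higher and 3 and 9 lower in H1299, with medians of -0.26 and -0.42. Their summed level was 4710 to 5830 CPM in A549 shcon, 2120 to 3650 CPM under shPPP2R2A-1 and 2020.0 to 2090.0 CPM under shPPP2R2A-2, and 7290.0 to 8190.0, 6180.0 to 7240.0 and 5350.0 to 6740.0 CPM in H1299, without overlap between KD and shcon in either line. In bulk RNA, fewer cells in S phase and less RNA per cell cannot be told apart.

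RNAs that normally carry no poly(A) tail measure how much of such RNA the libraries let through, since histone reads could come from either form. Of 36 table entries for 30 such RNAs, 9 were tested in A549 and 12 in H1299. In A549, 0 were called under shPPP2R2A-1, with 0 at an unadjusted p under 0.05 and 0 by DESeq2, and 1, SNORD17, was lower under shPPP2R2A-2. In H1299, 0 were called under shPPP2R2A-1 (1 higher unadjusted, 1 by DESeq2), and 1, SNORA73B, was lower under shPPP2R2A-2. The summed level of all was 276 to 295 CPM in A549 shcon, 216 to 295 CPM under shPPP2R2A-1 and 219 to 301 CPM under shPPP2R2A-2, and 213 to 245, 253 to 342 and 165 to 191 CPM in H1299. In H1299 it thus lay above shcon under shPPP2R2A-1 and below it under shPPP2R2A-2. Of the 36 entries, 26 stayed under 1 CPM in every library and 5 were at 0 in all. Leaving out RN7SL1 and RN7SL2, which carry most of these reads, it was 13 to 14.5 CPM in A549 shcon, 11.0 to 25.4 CPM under shPPP2R2A-1 and 8.26 to 23.9 CPM under shPPP2R2A-2, and 18.4 to 36.6, 20.2 to 25.7 and 10.0 to 11.4 CPM in H1299. These ranges overlapped shcon in all but H1299 shPPP2R2A-2, which lay below shcon while the members' sum lay above it. The part of such RNA in the members' changes was not tested. Whether the members' reads came from polyadenylated or stem-loop forms was not tested.

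**Figure D5:**
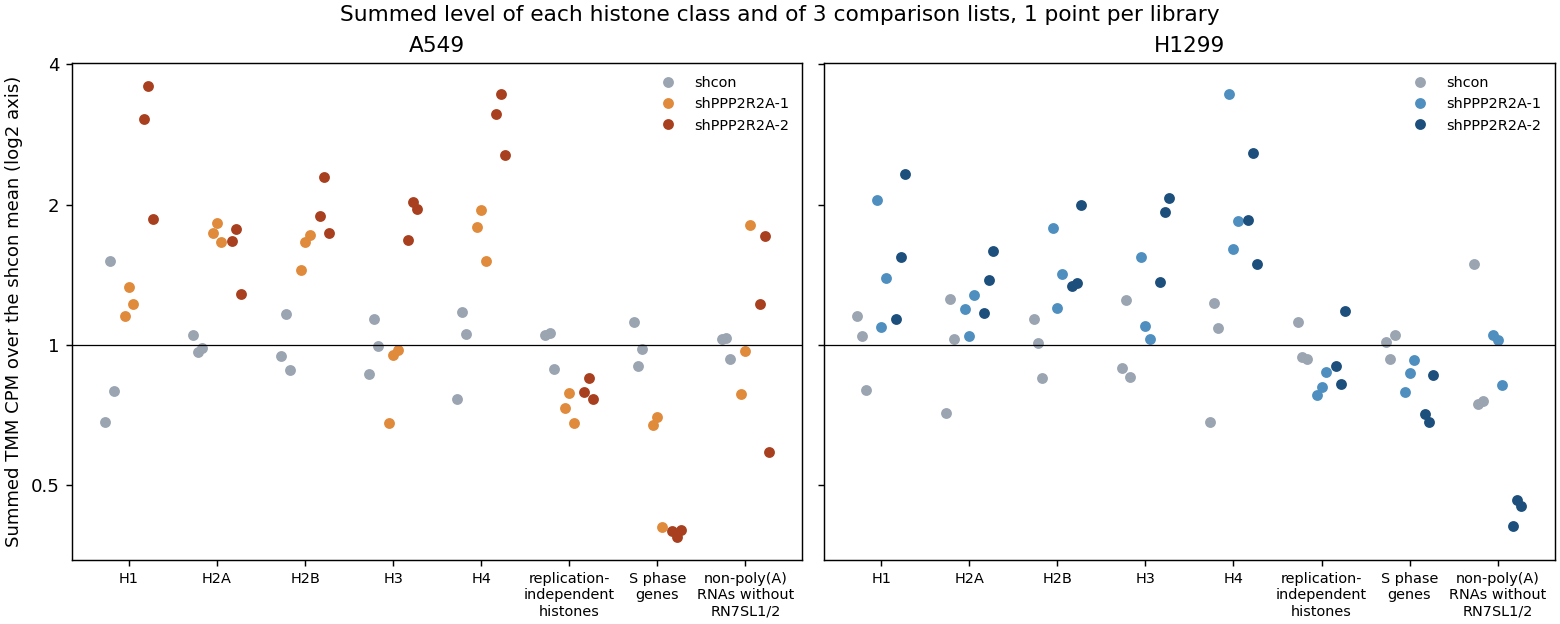
Summed TMM CPM of each histone class, of histones outside the clusters, of S phase genes and of non-polyadenylated RNAs without RN7SL1 and RN7SL2, divided by the mean of the line's shcon libraries (log2 axis), 1 point per library. The H2B and H4 points of the KD libraries lie above shcon in both lines, and those of the S phase genes below.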

How the data were processed

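Poly(A)-selected stranded mRNA from A549 and H1299 cells was sequenced in 18 libraries. The authors deposited a table of read counts per gene, made with tools that the submitters' processing notes list as cutadapt 2.5, STAR 2.7.3a and HTSeq 0.11.2 on GRCh37. The authors also deposited normalized signal columns, which equal the counts divided by size factors and were used only for that check. Columns of the authors' own comparisons were not used. No row lacked a gene name.

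Members were matched by symbol. The symbol rule for members uses no measured value, but members and gene lists were chosen with earlier results of these data known. TMM CPM and quasi-likelihood tests came from edgeR 4.0.16 (R 4.3.3) after its filter on low counts, fitted within each line (9 libraries) for the hairpins and over all 18 for line comparisons, with Benjamini-Hochberg adjustment over all genes and a threshold of 0.05. Depth was 35743287 to 69298905 counts, and intervals and floors cover counting error only. Alternatives were DESeq2 1.42.0, other scalings and filters, a replicate block, and leaving out each library. The labels do not say what a replicate number marks. In H1299, same-numbered libraries deviated together in all 3 pairs of shcon with shPPP2R2A-1 (r of 0.189 to 0.335) and of the hairpins (0.237 to 0.454). The numbers were read from this as pairing these, but the reading is uncertain. For shcon with shPPP2R2A-2 the same numbers gave r of -0.617 to 0.524. Differently numbered H1299 libraries passed 0.1 in 4 of 18 pairs and reached 0.584. The main tests used no pairing. The procedure was tested on simulated data. No libraries of a group were identical or alike within sampling noise. Named by a fixed rule were PPP2R2A, the 10 members of the highest mean CPM, members called against shcon or in a line difference, SLBP, NPAT, CASP8AP2 and, of each other list, up to 4 genes per comparison with the smallest adjusted p among those called. Other members and list genes, such as those read mainly in 1 line, were named after their values were seen. Stem-loops came from GENCODE v29 transcripts and promoters from RefSeq, neither being the annotation used for counting.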

Additional observations from a re-analysis of the deposited data

Results flagged for a closer look

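The change with shPPP2R2A-1 differed between the lines for HIST1H1E, by -5.42 (A549 minus H1299, SE 1.10, edgeR adjusted p = 0.025), at log2 fold changes of -3.90 in A549 and 1.47 in H1299. It rests on few counts, and 5 of 18 fits without 1 library lost the call (without A549 shcon repeat 3, A549 shPPP2R2A-1 repeat 3, H1299 shcon repeat 2 or 3, or H1299 shPPP2R2A-1 repeat 1).

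Among genes of histone gene transcription, the shPPP2R2A-1 change of CCNE1 differed by 1.72 (SE 0.29, edgeR adjusted p = 0.0088), at 0.22 in A549 and -1.55 in H1299.

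The shPPP2R2A-2 change of E2F2 differed by -1.80 (SE 0.38, edgeR adjusted p = 0.031), at -2.80 in A549 and -1.08 in H1299, and the call was lost in 10 of 18 fits without 1 library.

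For MCM2, a replication helicase subunit, the shPPP2R2A-2 change differed by -1.44 (SE 0.32, edgeR adjusted p = 0.042), at -2.0 in A549 and -0.64 in H1299, and the call was lost in 12 of 18 such fits.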

How the results depend on the processing

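The members' direction held under most settings, and the counts of calls moved more. Under DESeq2, A549 shPPP2R2A-1 gave 1802 genes lower, H1299 shPPP2R2A-1 596 higher and 865 lower, H1299 shPPP2R2A-2 786 and 637, the H1299 hairpin comparison 1666 lower, and the line differences 515 and 213 (shPPP2R2A-1) and 312 and 308 (shPPP2R2A-2). Members higher were then 5 and 7 in H1299 and 1 in the shPPP2R2A-1 line difference, and 1 was lower between the A549 hairpins. With no filter on low counts these were 1820, 554 and 827, 652 and 517, 530 and 374, and 338 and 473 genes, with 5 and 9 members higher in H1299, 1 higher in the shPPP2R2A-1 line difference and 2 lower between the H1299 hairpins. With a filter on the mean, 0 members were lower with shPPP2R2A-1 in A549, between the H1299 hairpins or in the shPPP2R2A-1 line difference, and 0 were higher in A549 than H1299 shcon. With all 18 libraries in 1 fit, 226 and 414 genes were higher in H1299, 2 members were higher with shPPP2R2A-1 there, and 2 were lower with shPPP2R2A-1 in A549. Scaling by total counts gave 355 genes higher and 195 lower with shPPP2R2A-2 in H1299 (64.5% higher, against 44.4%), and 52 and 99 in the shPPP2R2A-2 line difference (34.4%, against 46.3%). At 2 CPM, 13 members were detected, and without HIST1H2BK the summed means were 109, 170.0, 231, 178, 271 and 308 CPM.

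In A549 and in H1299 shcon against shPPP2R2A-2 the libraries share only a number: same-numbered libraries deviated together (r over 0.1) in 3 of 9 pairs in A549 and in 1 of 3 in that H1299 comparison. A replicate block gave 721 genes lower with shPPP2R2A-1 in A549 and 32 and 39 lower in the line differences. Under the block, edgeR adjusted p passed 0.05 for HIST1H2BD (0.053) and HIST1H2BJ (0.067) with shPPP2R2A-2 in A549, HIST1H2BJ (0.059) in H1299, HIST1H2AG (0.085) between the A549 hairpins and HIST1H3H (0.051) between the H1299 hairpins, and no other member called against shcon lost its call.

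Leaving out 1 library at a time, genes higher and lower ranged over 495 to 1422 and 423 to 1309 (A549 shPPP2R2A-1), 904 to 2397 and 623 to 2190 (A549 shPPP2R2A-2), 11 to 508 and 52 to 587 (H1299 shPPP2R2A-1), 17 to 730 and 70 to 487 (H1299 shPPP2R2A-2), 918 to 2090 and 531 to 1746 (A549 hairpins), 571 to 1683 and 414 to 1370 (H1299 hairpins), 25 to 197 and 6 to 81 (shPPP2R2A-1 line difference) and 4 to 105 and 3 to 281 (shPPP2R2A-2 line difference). Members higher ranged over 3 to 6, 5 to 10, 0 to 2 and 0 to 4 against shcon, 2 to 5 between the A549 hairpins (lower 0 to 1), lower 0 to 1 between the H1299 hairpins, 2 to 4 between the lines' shcon and 0 to 1 in each direction in the shPPP2R2A-1 line difference. Signs turned only for values not called: with shPPP2R2A-1 in H1299, HIST1H2BN was 0.01 under DESeq2, size factors and total counts, 0.04 in 1 fit of all, and 0.07, 0.18 and 0.01 without H1299 shcon repeat 2, shPPP2R2A-1 repeat 2 or shPPP2R2A-2 repeat 3, HIST1H2AG was 0.13 without shcon repeat 2 and HIST1H3H 0.00 without shPPP2R2A-1 repeat 3. With shPPP2R2A-2, HIST1H2AC was -0.05 without H1299 shcon repeat 1, and HIST1H1E was 0.56 and 0.08 without H1299 shcon repeat 1 or shPPP2R2A-2 repeat 2, and -0.07 and -0.02 without A549 shcon repeat 1 or 2. Without 1 library at a time, the farthest opposite values were -0.24 (HIST1H2BN), -0.39 (HIST1H2AG) and -0.26 (HIST1H3H) under shPPP2R2A-1 in H1299, 0.38 (HIST1H2AC) and -0.67 (HIST1H1E) under shPPP2R2A-2 there, and 0.46 (HIST1H1E) under shPPP2R2A-2 in A549. The cause was not tested. Depth limits the members of few counts: the 13 with at most 10 counts did not pass the filter and were not tested.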
